A study of Mus musculus with 8 samples.

Results

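The distal end of mouse chromosome 4 holds a dense cluster of KRAB zinc finger genes, and its RNA was followed through a pair of exposures of embryonic stem (ES) cells to ML-792, an inhibitor of the SUMO-activating E1 enzyme. The members were the genes of the deposited count table that lie wholly between positions 145000000 and 148000000 of chromosome 4 (mm10, GENCODE M21 gene coordinates) and had at least 80 reads summed over the 8 libraries. Of 102 genes of the table in that window, 66 met the minimum, among 36920 genes in the table. They were 19 zinc finger genes, 11 other coding genes and 36 noncoding genes. A zinc finger gene was defined as a coding gene whose translated longest coding transcript held at least 3 C2H2 fingers. The 36 genes under the minimum were all noncoding. Just inside the minimum lay Gm13170 with 82 reads and Vmn2r-ps18 with 89, and just outside it Gm13240 and Gm13168 with 74 each.

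R1 cells, a mouse ES cell line grown in serum with LIF, were sequenced in 4 groups of 2 libraries. The treatment labels read control for the days named D1 and D8 and ML-792 for those named D3 and D10. An exposure of 48 h ended at D3 and another at D10, each begun on the preceding control day, with the dose written as 2.5 mM. D8 therefore holds cells that had been exposed once and withdrawn, and neither D3 nor D10 has an unexposed library of the same day, so inhibitor and time in culture cannot be told apart. The time tag of D1 replicate 2 reads day 0 although its title reads D1. No label says that the 2 libraries of a group came from separate cultures, so p-values measure the spread between these libraries, which may be technical.

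KRAB zinc finger proteins read DNA with arrays of C2H2 fingers, often at transposable elements, and their KRAB domain recruits the corepressor TRIM28, which brings in the histone methyltransferase SETDB1. Genes of this family multiply by tandem duplication and lie in clusters of near-identical copies. TRIM28 is itself modified by SUMO, a small protein attached to its targets through the E1 enzyme that ML-792 blocks.

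All 19 zinc finger members also carried the core of the KRAB A box, and they spanned 2338 kb. Their predicted proteins were 335 to 799 residues long (median 573) and held 3 to 20 fingers (median 12). Of the 11 other coding members, 9 lacked a KRAB core: Tnfrsf1b, Tnfrsf8, Gm16503, Miip, Fv1, Mfn2, Plod1, 2510039O18Rik and Nppb. The remaining pair, Zfp993 and Gm21411, had a KRAB core and under 3 fingers. The noncoding members comprised 26 processed pseudogenes, 5 unprocessed pseudogenes and 5 long noncoding RNA genes.

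The sequences before the transcription starts show how alike the copies are. RefSeq (GRCm38.p6) held a start for 13 of the 19 zinc finger members and for 9 of the 11 other coding members. These starts lay within 112 bases of the GENCODE start, except for Zfp981, 12893 bases inside the gene, and Zfp993, 98112 bases away. The 250 bases upstream are printed 5′ to 3′ for 3 sets: Gm13212 and Zfp984, at and near the ends of the range of responses in the first exposure; Rex2 and Zfp979, nearly identical upstream; and Zfp982 and Zfp933, the latter unlike the others. Capitals mark the run of 15 bases shared by most of them, and all 6 lie on chromosome 4. The positions are chr4:145584950-145585199 (plus strand) for Gm13212, chr4:147809789-147810038 (minus strand) for Zfp984, chr4:147021600-147021849 (plus strand) for Rex2, chr4:147642509-147642758 (minus strand) for Zfp979, chr4:147492167-147492416 (plus strand) for Zfp982 and chr4:147848419-147848668 (minus strand) for Zfp933.
Gm13212: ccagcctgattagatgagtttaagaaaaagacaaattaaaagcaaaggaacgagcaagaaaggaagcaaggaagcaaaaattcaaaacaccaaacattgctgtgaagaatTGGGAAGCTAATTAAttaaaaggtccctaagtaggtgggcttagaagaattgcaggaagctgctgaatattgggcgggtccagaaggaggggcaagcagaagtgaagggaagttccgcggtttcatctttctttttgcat
Zfp984: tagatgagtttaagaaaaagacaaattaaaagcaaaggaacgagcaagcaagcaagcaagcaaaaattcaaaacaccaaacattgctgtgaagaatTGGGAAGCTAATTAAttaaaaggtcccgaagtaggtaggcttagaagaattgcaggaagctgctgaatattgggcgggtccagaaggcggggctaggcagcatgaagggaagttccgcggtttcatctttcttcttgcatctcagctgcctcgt
Rex2: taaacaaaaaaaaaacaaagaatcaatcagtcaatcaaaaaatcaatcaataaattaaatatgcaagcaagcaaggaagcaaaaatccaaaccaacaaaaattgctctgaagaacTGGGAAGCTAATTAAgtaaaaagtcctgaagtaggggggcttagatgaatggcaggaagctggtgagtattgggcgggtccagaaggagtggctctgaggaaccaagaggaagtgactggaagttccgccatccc
Zfp979: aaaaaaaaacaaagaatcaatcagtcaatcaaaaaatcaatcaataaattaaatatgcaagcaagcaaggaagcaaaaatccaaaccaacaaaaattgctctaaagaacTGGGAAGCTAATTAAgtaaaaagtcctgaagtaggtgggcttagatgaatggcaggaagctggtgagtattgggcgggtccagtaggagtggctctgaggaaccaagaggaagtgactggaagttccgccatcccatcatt
Zfp982: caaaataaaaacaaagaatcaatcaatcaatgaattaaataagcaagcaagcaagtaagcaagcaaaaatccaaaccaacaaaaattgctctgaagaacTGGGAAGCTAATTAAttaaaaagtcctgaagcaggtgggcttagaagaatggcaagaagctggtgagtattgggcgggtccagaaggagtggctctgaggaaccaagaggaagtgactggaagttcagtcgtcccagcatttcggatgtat
Zfp933: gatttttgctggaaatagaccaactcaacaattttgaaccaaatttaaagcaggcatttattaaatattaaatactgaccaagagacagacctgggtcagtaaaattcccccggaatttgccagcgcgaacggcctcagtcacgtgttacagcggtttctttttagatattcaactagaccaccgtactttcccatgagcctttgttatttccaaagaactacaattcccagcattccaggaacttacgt

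The run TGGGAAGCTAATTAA was found in 12 of 13 zinc finger upstream sequences, all but that of Zfp933, and in 0 of 9 of the other coding members. Of these 9 windows, that of Zfp993 lies 98112 bases from its GENCODE start and within the span of Zfp981, so it may not be its promoter. The run was chosen as the longest shared by 12 of the zinc finger sequences. Among 32851 promoter sequences of the RefSeq table, searched on both strands, 12 (0.0365%) held it. It lay 106 to 164 bases before the start. Over the 66 pairs without Zfp933 the aligned upstream sequences were 75.8% to 99.6% identical (median 87.2%). Rex2 and Zfp979 matched at 98.8% over 244 aligned columns, and Gm13212 and Zfp984 at 94.2% over 241. Upstream sequences with the run had 36.8% to 43.6% GC, against a median of 60.0% for the other coding members, the window of Zfp993 included.

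A CCAAT box (CCAAT) was present in 12 of 13 zinc finger sequences, against 33.8% of all promoters, and a GGAAGT core of ETS sites in 10, against 19.7%. TATAAA was in 0 of 13 (12.4% of all). TAATTAAT, which overlaps the end of the shared run, was in 9 (0.788% of all). The E-box CACGTG was in 1 (6.02% of all). These matches on both strands are descriptions of the letters in the windows.

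Similarity extended into the transcripts. Only 10.9% to 98.2% (median 32.1%) of the distinct 50-base words of a zinc finger member's transcripts occurred in no other gene's transcripts. For the 9 other coding members without a KRAB core this share was 99.4% to 100%. How the counting treated reads with several matches, and whether it used strand, is not given in the sources used here. Levels of single copies, such as Rex2 (10.9%) and Zfp600 (18.8%), are therefore uncertain. Zfp933 (98.2%), Zfp982 (88.1%), Zfp985 (84.1%), Zfp979 (72.9%) and Zfp990 (70.9%) were the most distinct. In addition, 11 of the 19 overlapped another annotated gene, 8 of them a gene on the opposite strand.

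Reads assigned to genes ranged from 21040992 to 40835518 per library. The 8 ES cell markers summed to 5838 and 6568 CPM (reads relative to the size of the library, scaled by TMM) before the inhibitor (D1), 4277 and 4251 after it (D3), 6060 and 6562 once withdrawn (D8) and 3174 and 3729 after re-exposure (D10). By edgeR, where 5.1% of all genes fell in the first exposure and 7.65% in the second, 2 of the 8 fell in the first, Klf4 and Dppa5a. In the second 6 fell, these and Pou5f1, Nanog, Zfp42 and Esrrb. Their sum thus moved opposite to that of the zinc finger members, and its part in the results was not tested. Genes of fibroblasts, 6 listed, summed to at most 19.7 CPM in any library. Where 7.92% and 9.27% of all genes rose in the exposures by edgeR, the 11 markers of 2-cell-like cells all rose in both. They summed to 49.9 and 97.2 CPM before the inhibitor (D1), 859 and 2773 after it (D3), 7.79 and 14.6 once withdrawn (D8) and 600 and 620 after re-exposure (D10). Of 6 primitive endoderm markers, 5 were called higher at D8 than at D1 by edgeR, where 0.141% of all genes were. These calls lay close to the threshold (edgeR adjusted p = 0.041 to 0.048). The 6 summed to 116 and 165 CPM at D8 against 17.7 and 22.3 at D1. Germ cell genes, 4 listed, summed to 70.9 to 213 CPM. In these bulk libraries more cells of a type and more RNA per cell cannot be told apart.

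D8 replicate 2 stood apart in a way that touches every result below. Its deviation from the mean over the libraries increased with a gene's GC content (Spearman rho 0.63 over 10975 coding genes). In D8 replicate 1 rho was 0.08. It was -0.17 and 0.11 at D1, -0.36 and -0.33 at D3, and -0.41 and 0.05 at D10. In both exposures rho was thus lower in each ML-792 library than in each library of the preceding control group. The zinc finger members are GC-poor, at 34.6% to 40.2% of the bases of a gene's longest transcript, whereas the other coding members without a KRAB core held 37.9% to 61.4%. Each of the 19 zinc finger members had its lowest level in D8 replicate 2. The part of library composition in the results was not tested. Counts and medians of the zinc finger members without that library, and with offsets for GC content and length, are given beside the results.

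Zinc finger RNA was higher in both ML-792 groups than in the preceding control group. Summed over the 19 members, it was 943 and 697 CPM before the inhibitor (D1), 1295 and 1118 after it (D3), 624 and 277 once withdrawn (D8) and 1289 and 817 after re-exposure (D10). The D3 libraries lay above the D1 libraries, and the D10 libraries above the D8 libraries. In every member the mean went up to D3, down to D8 and up again to D10. Replicate 2 lay below replicate 1 for all 19 members at D3, D8 and D10, and for 17 at D1.

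**Figure D1:**
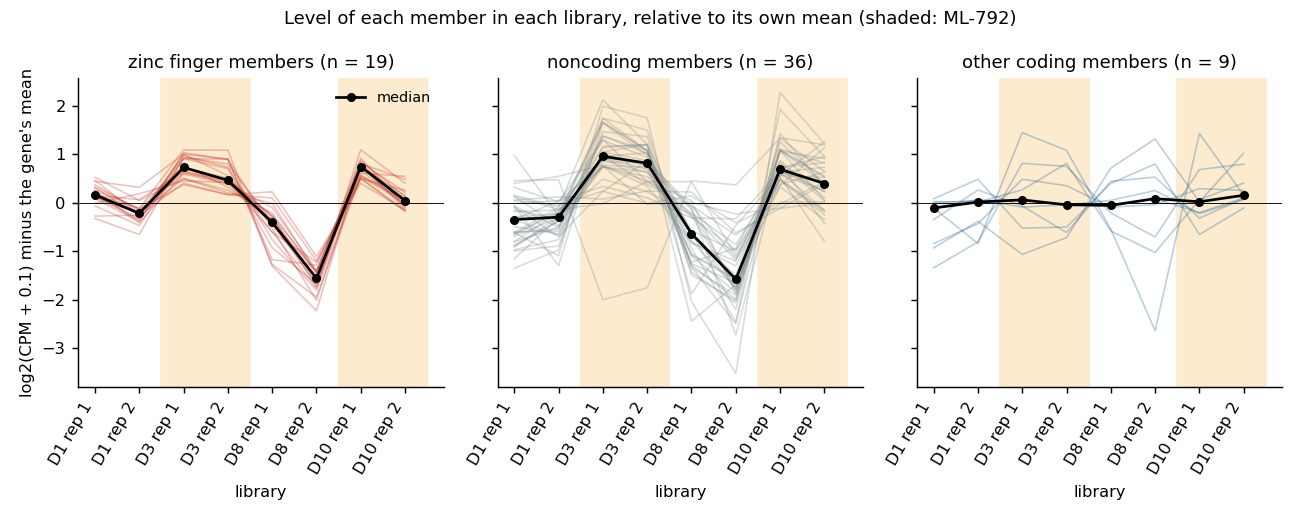
Level of every zinc finger, noncoding and other coding member (without a KRAB core) in each of the 8 libraries, as log2(CPM + 0.1) minus the gene's own mean; thin lines are genes, the black line is their median, and shading marks the ML-792 libraries. The zinc finger lines move together, with the lowest point of all 19 in D8 replicate 2, while the median of the 9 other coding members stays near 0.

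The first exposure (D3 against D1) asks which members differed after 48 h of inhibitor. All 19 zinc finger members had positive log2 fold changes, from 0.08 to 1.36 with a median of 0.54, against a median of 0 over all 19173 genes tested. The smallest changed sign in some fits: those of Zfp979 and Zfp984 were below 0 with offsets for GC content and length, those of both and Zfp933 without D1 replicate 2, and that of Zfp979 without D3 replicate 1. In 16 of 19, both D3 libraries lay above both D1 libraries. Among all genes tested, 32.8% were higher without overlap. By edgeR's quasi-likelihood test with Benjamini-Hochberg adjustment over all genes, 3 of 19 rose and 0 fell. The share of all genes that rose was 7.92%, and the share that fell 5.1%. DESeq2 called 4 of the 19 higher, against 1691 of all 19173 genes tested.

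Zfp981 (chromosome 4, 146502027 to 146539395, plus strand), with 7 fingers, gave the most even readings. It stood at 37.6 and 38.2 CPM at D1 and at 85.8 and 85.2 at D3. The log2 fold change was 1.17 (SE 0.12, adjusted p = 0.002), and the groups did not overlap. Gm13212, whose predicted protein had the most fingers of the set, 20, went from 8.99 and 7.14 CPM to 21.6 and 19.8, a log2 change of 1.36 (SE 0.34, adjusted p = 0.033). Zfp978, with 3 fingers and only 22.6% unique words, went from 41.8 and 34.4 CPM to 79.5 and 79.3, a log2 change of 1.06 (SE 0.27, adjusted p = 0.033). In these 3 genes both D3 libraries lay above both D1 libraries, and the rises were 2.09-fold to 2.57-fold.

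Zfp982 lay at the threshold. Its levels were 17.8 and 13.5 CPM at D1 and 35.2 and 30.5 at D3, again without overlap, with a log2 change of 1.07 (SE 0.30, adjusted p = 0.05, not under the threshold). Zfp989 had a log2 change of 1.12 (SE 0.45, adjusted p = 0.14) at levels of 3.29 to 8.97 CPM. Neither was called, although their changes were as large as that of Zfp978.

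Of the 4 members with the most RNA per length, Zfp978 was called and the other 3 were not. By mean FPKM (CPM per kb of exon) the highest were Zfp990 at 51.6, Zfp979 at 37.3, Zfp978 at 36.5 and Zfp985 at 34.6. Zfp990 measured 197 and 124 CPM at D1 and 251 and 216 at D3, a log2 change of 0.54 (SE 0.43, adjusted p = 0.46). Zfp979 measured 205 and 147 CPM at D1 and 202 and 171 at D3, a log2 change of 0.08 (SE 0.38, adjusted p = 0.91), with overlapping groups. Zfp985 measured 99.5 and 70.8 CPM at D1 and 148 and 127 at D3, a log2 change of 0.69 (SE 0.41, adjusted p = 0.31). For Zfp990 and Zfp985 the D3 libraries were above both D1 libraries, but the spread between the D1 libraries was wide.

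Rex2, with 15 fingers, and Zfp600, with 17, did not pass in the first exposure. Rex2 measured 20.2 and 12.4 CPM at D1 and 28.8 and 24.5 at D3, a log2 change of 0.71 (SE 0.36, adjusted p = 0.23). Zfp600 measured 25.7 and 23.6 CPM at D1 and 37.9 and 35.3 at D3, a log2 change of 0.57 (SE 0.25, adjusted p = 0.17). Both D3 libraries were above both D1 libraries for each of them.

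With a D1 or D3 library left out, its group holds 1, and fewer of all genes tested were called as well. The zinc finger median then ran from 0.39 to 0.69. The count of 3 rested on few libraries. It fell to 1, Zfp981, when either D1 library or either D3 library was left out, including D1 replicate 2 with its day 0 tag, and was 5 without either D8 library (median 0.52 without D8 replicate 2). With offsets for GC content and length the median was 0.28 and 5 members were called, 2 of them among the 3; Zfp981 was not, at a log2 change of 0.87 (adjusted p = 0.065).

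**Figure D2:**
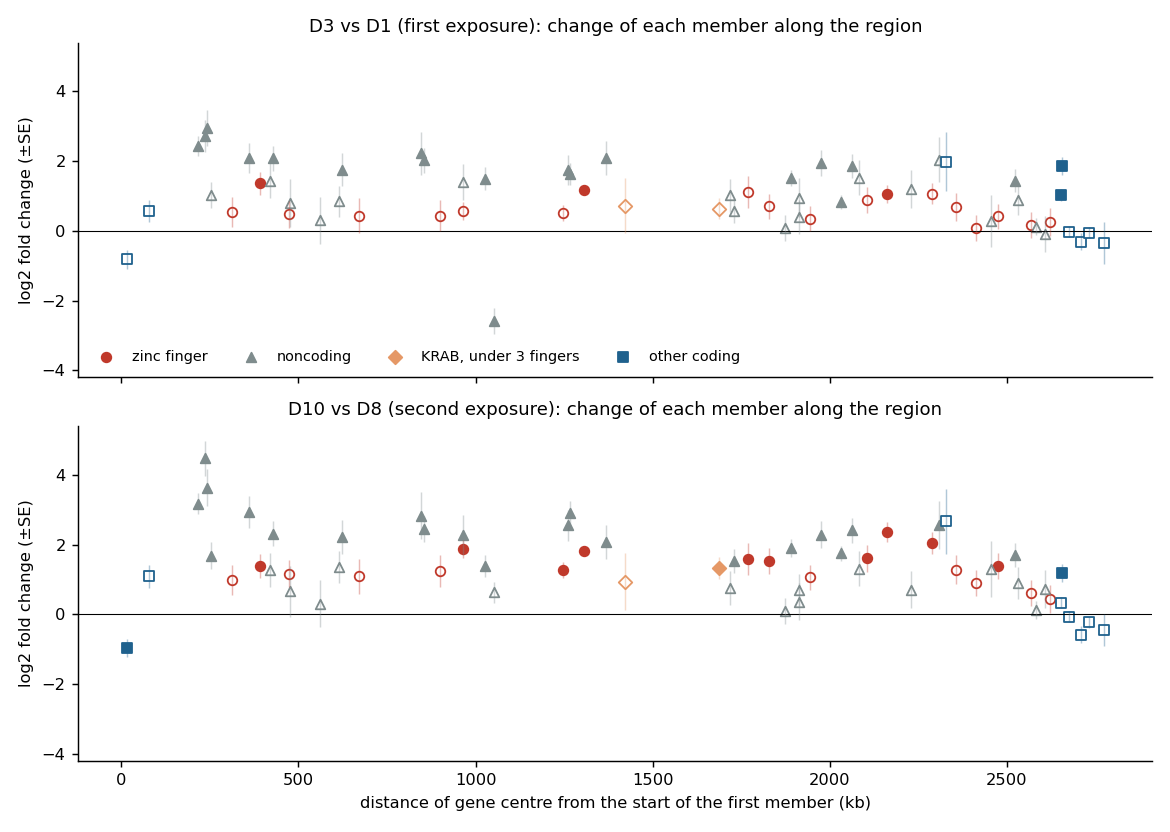
Log2 fold change (±SE) of each of the 66 members against the distance of its centre from the start of the first member, for D3 against D1 (upper) and D10 against D8 (lower); filled symbols were called at an adjusted p under 0.05. Zinc finger and noncoding members lie above 0 along most of the region, and the coding genes at the right end other than Fv1 and Miip lie near or below 0.

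In the second exposure (D10 against D8) the zinc finger members had a larger median. Their 19 log2 fold changes ran from 0.44 to 2.36 with a median of 1.28, against 0.03 over all genes tested; without D8 replicate 2 that of Zfp933 was below 0. Of the 19, 15 were higher at D10 without overlap, against 27.2% of all genes. By edgeR, 10 of 19 rose and 0 fell, where 9.27% of all genes rose and 7.65% fell. The 10 were Zfp978, Zfp982, Zfp600, Zfp981, Zfp988, Zfp989, Rex2, Gm13212, Zfp534 and Zfp992, with rises of 2.41-fold to 5.13-fold. DESeq2 called 14.

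Zfp978 had the largest change of the zinc finger members. It stood at 15.1 and 7.88 CPM at D8 and at 65.4 and 52.4 at D10, a log2 change of 2.36 (SE 0.28, adjusted p = 0.0019). Zfp982 (147492417 to 147513486, plus strand), one of the most distinct copies, stood at 9.78 and 5.76 CPM at D8 and 39.9 and 24.7 at D10, a log2 change of 2.05 (SE 0.31, adjusted p = 0.0045). In both genes the lower D10 library was at least 2-fold above the higher D8 library.

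Zfp600 stood at 7.75 and 4.83 CPM at D8 and 27.6 and 18.8 at D10, a log2 change of 1.88 (SE 0.26, adjusted p = 0.0032). Zfp981 stood at 20.2 and 18.6 CPM at D8 and 69.9 and 66.6 at D10, a log2 change of 1.81 (SE 0.13, adjusted p = 0.00042). Zfp981 had the narrowest spread between libraries in both exposures among the genes named here. Rex2 stood at 8.64 and 4.12 CPM at D8 and 21.6 and 15.4 at D10, a log2 change of 1.53 (SE 0.37, adjusted p = 0.024).

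The next by size were Zfp988 and Zfp989, of 14 and 15 fingers. Zfp988 stood at 40.5 and 18.1 CPM at D8 and 113 and 67.2 at D10, a log2 change of 1.61 (SE 0.39, adjusted p = 0.024). Zfp989 stood at 2.98 and 0.998 CPM at D8 and 7.34 and 4.80 at D10, a log2 change of 1.60 (SE 0.46, adjusted p = 0.045). For both, the D8 libraries differed by more than 2-fold between themselves.

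The smallest called changes were those of Zfp992, Gm13212 and Zfp534. Zfp992 had a log2 change of 1.27 (SE 0.23, adjusted p = 0.0086), Gm13212 of 1.39 (SE 0.34, adjusted p = 0.026) and Zfp534 of 1.39 (SE 0.36, adjusted p = 0.032). Of the 4 most abundant members, Zfp978 passed and the other 3 again did not. Zfp985 had a log2 change of 1.28 (SE 0.42, adjusted p = 0.068), Zfp990 of 1.0 (SE 0.43, adjusted p = 0.15) and Zfp979 of 0.90 (SE 0.38, adjusted p = 0.14). Zfp979 measured 123 and 51.7 CPM at D8 and 201 and 126 at D10, without overlap by a narrow margin.

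Fewer of all genes tested were called in this comparison without D8 replicate 2 or D10 replicate 1, and more without D8 replicate 1. The size of the zinc finger changes moved with D8 replicate 2. Without it 5 zinc finger members were called, Zfp600, Zfp992, Zfp981, Zfp978 and Zfp982, all among the 10, and the median was 0.87. The same 5 were called without D10 replicate 1, with a median of 1.02. Without D8 replicate 1 all 19 were called and the median was 2.03. With offsets for GC content and length 14 were called, including all 10, and the median was 0.80. Zfp534 and Zfp989 were also lost without either D1 or either D3 library, and Zfp989 without D10 replicate 2.

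**Figure D3:**
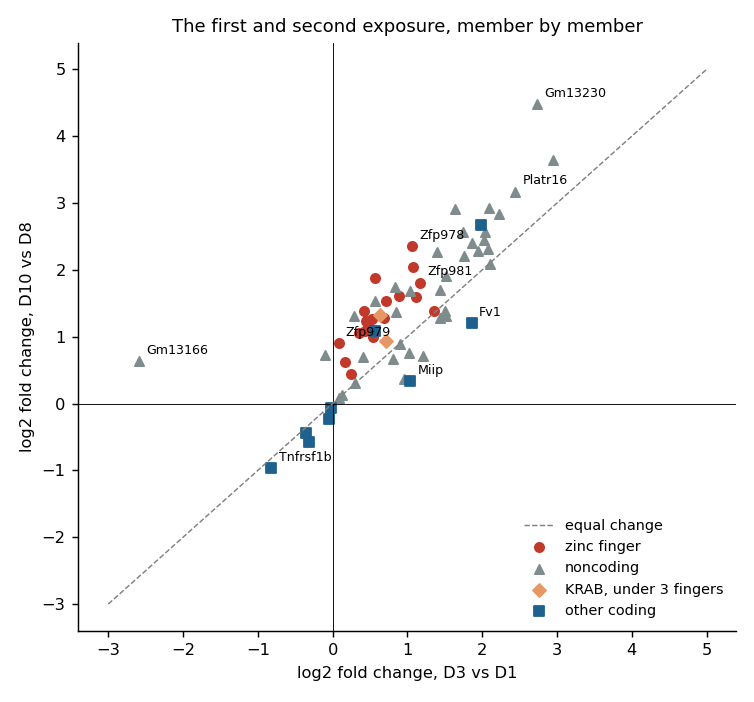
Log2 fold change of each of the 66 members in the first exposure (D3 against D1, horizontal) and the second (D10 against D8, vertical), by class; the dashed line marks equal change. All 19 zinc finger members lie above the line, and Gm13166 alone lies far to the left of 0.

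The difference between the exposures was tested by an interaction term. For the zinc finger members the second response minus the first had a median of 0.72 (log2) and was above 0 in all 19. None of the 19 was called by edgeR at an adjusted p under 0.05, 5 had an unadjusted p under 0.05, and DESeq2 called 0. Over all genes edgeR called 0 (0%), with 575 at an unadjusted p under 0.05, and DESeq2 called 3. Without D8 replicate 2 the median of the zinc finger members was 0.23, without D10 replicate 1 0.36, and with offsets for GC content and length 0.49. Across the 19 members the log2 fold changes of the exposures, which share no library, ranked alike (Spearman rho 0.82 across genes, which are not independent).

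After withdrawal most zinc finger members fell. This comparison (D8 against D3) shares its D3 libraries with the first exposure and its D8 libraries with the second. By edgeR 13 of 19 members fell and 0 rose, where 11.2% of all genes fell, and 18 were lower without overlap (31.6% of all genes). The median log2 fold change was -1.43. Zfp978 fell by 2.79 (SE 0.28, adjusted p = 0.00086), Zfp600 by 2.54 (SE 0.27, adjusted p = 0.00091) and Zfp981 by 2.14 (SE 0.13, adjusted p = 0.00028) on the log2 scale. Without D8 replicate 2, 9 of the 13 were called and the median was -0.95. Without D3 replicate 1, 6 were called. With offsets for GC content and length 15 were called and the median was -0.80.

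Whether the withdrawn cells returned to the level of D1 is addressed by D8 against D1, which shares libraries with the comparisons above. All 19 log2 fold changes were below 0, from -1.97 to -0.34, with a median of -0.97, but 3 were above 0 without D8 replicate 2 and 1 with offsets for GC content and length. By edgeR 2 fell, where 0.0365% of all genes fell and 0.177% were called in either direction, and 13 were lower without overlap, against 20.3% of all genes. Zfp600 went from 25.7 and 23.6 CPM at D1 to 7.75 and 4.83 at D8, a log2 change of -1.97 (SE 0.26, adjusted p = 0.044). Zfp981 went from 37.6 and 38.2 CPM to 20.2 and 18.6, a log2 change of -0.97 (SE 0.12, adjusted p = 0.044). For both the D8 libraries lay below the D1 libraries without overlap.

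Zfp978, at a log2 change of -1.73 (SE 0.28, adjusted p = 0.067), and Rex2, at -1.35 (SE 0.37, adjusted p = 0.23), did not pass by edgeR. DESeq2 called 5 of the 19 lower, against 154 of all genes tested. The calls of Zfp600 and Zfp981 were both lost without D8 replicate 2, when 0 of 19 were called by edgeR and the median was -0.41. They were also lost without either D1 or either D3 library. Without either D10 library 1, Zfp600, was called. Without D8 replicate 1, 10 were called. With offsets for GC content and length 3 were called (Zfp600, Zfp978 and Zfp979) and the median was -0.59.

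**Figure D4:**
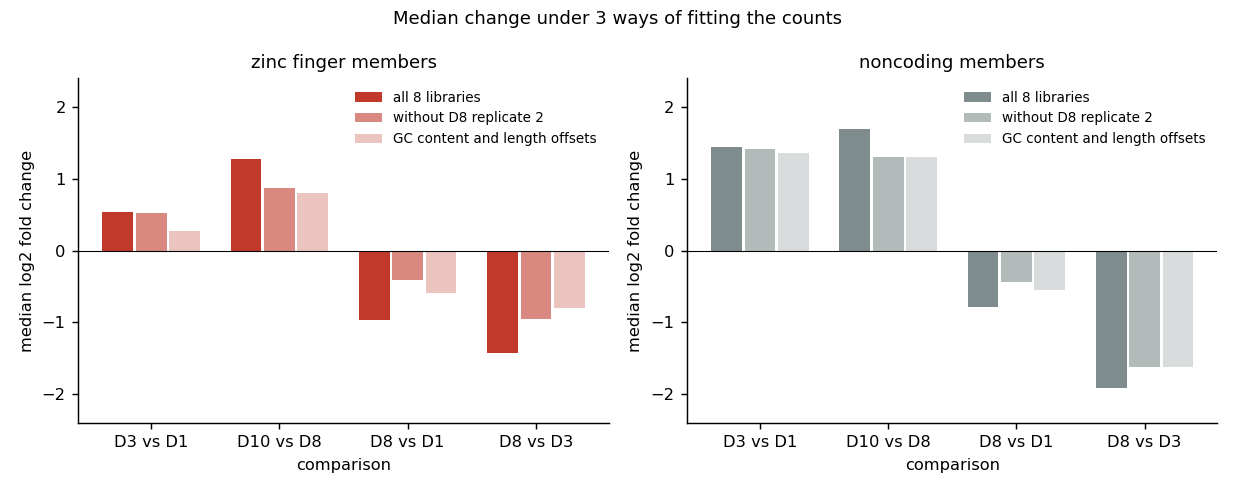
Median log2 change of the 19 zinc finger and 36 noncoding members in 4 comparisons, with all 8 libraries, without D8 replicate 2, and with offsets for GC content and length. The zinc finger median for D10 against D8 is 1.28, 0.87 and 0.80 in the 3 fits, and that for D8 against D1 is -0.97, -0.41 and -0.59.

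Within the zinc finger set the pattern was shared. The correlation of a member's log2 CPM with the mean of the other 18 over the 8 libraries ran from 0.868 for Zfp933 to 0.994 for Zfp988. Some genes on other chromosomes, named below, correlated as closely with the mean of the set, up to 0.998 for Zfp936. The 4 members on the minus strand, Zfp979, Zfp534, Zfp984 and Zfp933, had median log2 fold changes of 0.21 and 0.76 in the exposures, against 0.69 and 1.39 for the 15 on the plus strand. These 4 are also the last of the set toward the end of the window, so strand and position cannot be told apart. Zfp933, which lacks the shared upstream run, had changes of 0.25 and 0.44 (adjusted p = 0.74 and 0.5). Zfp984, which has it and resembles Gm13212 there, had changes of 0.17 and 0.62 (adjusted p = 0.82 and 0.3). Zfp979 and Rex2, nearly identical upstream, differed in the first exposure by 0.08 against 0.71, neither called. Across the 12 members with the run the changes spanned 0.08 to 1.36 and 0.62 to 2.05.

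Within the zinc finger set, neither the GC content nor the number of fingers ordered the responses closely. The GC content spanned only 34.6% to 40.2%, so this ranking cannot address a GC effect shared by all 19 members. Across the 19, Spearman's rho of the log2 fold change with GC content was 0.17 and 0.14 in the exposures, and with finger number 0.22 and 0.14. With the share of unique words it was 0.03 and -0.18. The 7 members with at least 50% unique words had medians of 0.54 and 1.27, and the 12 others 0.52 and 1.39.

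The coding neighbours without a KRAB core had no shared direction. Their median log2 fold changes were -0.02 in the first exposure and -0.06 in the second, and 0.32 and 0.01 for D8 against D1 and D8 against D3. Of the 9, 2 rose in the first exposure, Fv1 and Miip, and 0 fell, where 7.92% and 5.1% of all genes did. In the second 1 rose, Fv1, and 1 fell, Tnfrsf1b, against 9.27% and 7.65% of all genes. Without D8 replicate 2 0 of 9 were called in the second. With offsets for GC content and length 2 rose and 1 fell in the first, and 3 rose and 1 fell in the second.

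Fv1, a restriction factor against murine retroviruses that derives from an endogenous retroviral gag gene, lies at 147868979 to 147870358 on the plus strand. It measured 2.20 and 3.23 CPM before the inhibitor (D1), 10.2 and 9.72 after it (D3), 4.94 and 3.48 once withdrawn (D8) and 9.28 and 10.0 after re-exposure (D10). Its log2 fold change was 1.86 (SE 0.27, adjusted p = 0.0053) in the first exposure and 1.20 (SE 0.26, adjusted p = 0.018) in the second. The ML-792 libraries lay above the control libraries in both cases. The first call held when each library was left out in turn; the second was lost without D8 replicate 2 or either D10 library. The changes were 1.89 and 1.12 with offsets for GC content and length, both called.

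Miip lies head to head with Fv1, the 2 starts being 260 bases apart on opposite strands. It measured 16.9 and 22.4 CPM before the inhibitor (D1), 42.5 and 38.7 after it (D3), 28.5 and 29.5 once withdrawn (D8) and 37.2 and 36.2 after re-exposure (D10). Its log2 fold change was 1.04 (SE 0.17, adjusted p = 0.0068) in the first exposure, lost without D1 replicate 1 or D3 replicate 1, and 0.34 (SE 0.16, adjusted p = 0.2) in the second. The second was 0.63 and was called with offsets for GC content and length (adjusted p = 0.029). Both groups were separate in each exposure, with D8 above D1. Fv1 and Miip have no overlap with other annotated genes and 100% unique words.

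The next genes along the chromosome gave no call in either exposure. Mfn2, which encodes a protein of mitochondrial fusion, measured 29.4 and 30.4 CPM before the inhibitor (D1), 30.7 and 28.3 after it (D3), 28.3 and 31.2 once withdrawn (D8) and 25.5 and 31.5 after re-exposure (D10). Its log2 fold changes were -0.02 (SE 0.16, adjusted p = 0.95) and -0.06 (SE 0.16, adjusted p = 0.83). The groups of Mfn2 overlapped in both exposures. 2510039O18Rik had changes of -0.05 and -0.23 (SE 0.15 each), and Plod1, a collagen lysyl hydroxylase gene, of -0.31 and -0.58 (SE 0.25 each); neither passed in either exposure.

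At the other end of the region lies Tnfrsf1b, a receptor for tumour necrosis factor. It measured 8.51 and 11.3 CPM before the inhibitor (D1), 5.56 and 5.64 after it (D3), 10.6 and 14.1 once withdrawn (D8) and 5.07 and 7.44 after re-exposure (D10). Its log2 fold change was -0.82 (SE 0.27, adjusted p = 0.079) in the first exposure and -0.97 (SE 0.26, adjusted p = 0.037) in the second. The ML-792 libraries were the lower ones in both exposures. The call in the second exposure was lost without D8 replicate 2, D10 replicate 1, D1 replicate 2 or either D3 library. DESeq2 and the fit with offsets for GC content and length also called the first (adjusted p = 0.044 and 0.04).

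From D3 to D8 Tnfrsf8, the gene of the receptor CD30, fell by 1.42 (SE 0.33, adjusted p = 0.016), while Nppb, the natriuretic peptide B gene, had a log2 change of 2.22 (SE 0.53, adjusted p = 0.019) at levels of 0.253 to 1.74 CPM. Tnfrsf1b rose 2.2-fold (adjusted p = 0.017), Fv1 fell by 1.24 (SE 0.27, adjusted p = 0.012), and Gm16503, with 0 reads in D8 replicate 2, was called lower. Gm16503 had only 28 reads over the 4 control libraries, so that it met the read minimum through the ML-792 libraries and its fall is tied to that choice. Among these 9 neighbours 2 thus rose and 3 fell, where 11.3% and 11.2% of all genes did. All 5 calls were lost without D8 replicate 2 or D3 replicate 2, and all but that of Tnfrsf8 without D3 replicate 1. That of Gm16503 was also lost without either D1 library. Of the KRAB genes with under 3 fingers, Gm21411 measured 24.4 and 23.4 CPM before the inhibitor (D1), 42.0 and 32.2 after it (D3), 16.6 and 8.98 once withdrawn (D8) and 40.04 and 24.7 after re-exposure (D10). Its log2 change of 1.33 (SE 0.32, adjusted p = 0.024) in the second exposure passed and that of 0.64 (SE 0.31, adjusted p = 0.23) in the first did not, and the call was lost without D8 replicate 2 or D10 replicate 1.

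The noncoding members had larger medians than the zinc finger members, a difference that was not tested. Their median log2 fold changes were 1.44 and 1.69 in the exposures. By edgeR 17 of 36 rose and 1 fell in the first exposure, where 7.92% and 5.1% of all genes did. In the second 21 rose and 0 fell, against 9.27% and 7.65% of all genes. The same 17 rose in both. From D3 to D8 23 fell (11.2% of all genes) and 1, Gm13166, rose (11.3%). For D8 against D1 0 were called by edgeR, with 10 at an unadjusted p under 0.05, against 2311 of all 19173 genes tested. Against 154 of all genes, DESeq2 called 4 of the 36 lower. Their summed level was 110 and 110 CPM before the inhibitor (D1), 367 and 289 after it (D3), 71.8 and 42.8 once withdrawn (D8) and 320 and 212 after re-exposure (D10).

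These counts describe a set that the read minimum shaped. Of the 36, 6 had under 40 reads over the 4 control libraries, so that they met the minimum through the ML-792 libraries. Of these 6, 1 was among the 17, 3 among the 21 and 3 among the 23. With a D1 or D3 library left out, fewer of all genes tested were called in the first exposure. The same held in the second without D8 replicate 2 or D10 replicate 1. Without D1 replicate 1 the 17 became 1, and without D1 replicate 2 or D3 replicate 1 they became 3. Without D3 replicate 2 they became 9, with medians of 1.31 to 1.54 in these 4 cases. Without D8 replicate 2 or D10 replicate 1 the 21 became 14. In the exposures 19 and 22 rose with offsets for GC content and length, with medians of 1.36 and 1.31, and without D8 replicate 2 the second median was 1.30. A noncoding member's share of unique words ranged from 3.95% to 100%, so levels of members with low shares are uncertain. Of the 36, 21 overlapped another annotated gene, 16 of them a gene on the opposite strand.

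A pair at the start of the cluster that overlap on the plus strand, Gm13230 and Platr16, rose in both exposures. Gm13230, which had the largest change of the 66 members in the second, is a transcribed unprocessed pseudogene at 145446740 to 145450888, whose best coding match was Zfp982 at 85.5% identity. It measured 14.1 and 10.1 CPM before the inhibitor (D1), 86.6 and 73.3 after it (D3), 5.20 and 1.80 once withdrawn (D8) and 105 and 50.7 after re-exposure (D10). Its log2 fold change was 2.73 (SE 0.46, adjusted p = 0.0082) in the first exposure, lost without either D1 library, and 4.48 (SE 0.51, adjusted p = 0.0017) in the second. Every ML-792 library was more than 3-fold above every control library.

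Platr16, a long noncoding RNA gene, measured 1.15 and 1.24 CPM before the inhibitor (D1), 6.78 and 6.30 after it (D3), 0.785 and 0.515 once withdrawn (D8) and 6.20 and 5.59 after re-exposure (D10). Its log2 fold changes were 2.44 (SE 0.29, adjusted p = 0.0027) and 3.17 (SE 0.30, adjusted p = 0.00099). Groups were widely apart in both exposures. Because the pair overlap on the same strand, reads of one may be counted for the other.

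Processed pseudogenes are copies of messenger RNA inserted into the genome. The 26 in the cluster best matched only 8 coding genes, all outside the window: Cdv3 (8 copies), Smarca5 (6), Hmgb1, Ppp2r5a and Tlk2 (3 each), and Hmgb2, Rplp1 and Rps19 (1 each). Of the 26, 14 rose in the first exposure (7.92% of all genes) and 17 in the second (9.27%), with medians of 1.47 and 1.80.

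The 6 copies of Smarca5, which encodes a chromatin remodelling ATPase, were 96.6% to 98.1% identical to it. Of these, 4 rose in the first exposure (7.92% of all genes) and 6 in the second (9.27%), with medians of 1.66 and 2.01. Their shares of unique words were 21.5% to 56.9%, so levels of single copies are uncertain. Smarca5 itself had log2 fold changes of -0.10 (adjusted p = 0.84) and 0.05 (adjusted p = 0.91). The most abundant copy by reads, Gm13034, measured 8.61 and 13.3 CPM before the inhibitor (D1), 54.8 and 34.4 after it (D3), 6.64 and 4.02 once withdrawn (D8) and 35.01 and 23.5 after re-exposure (D10), with no overlap between the groups in either exposure.

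The Cdv3 copies had medians of 1.75 and 2.25, with 5 of 8 called higher in each exposure (7.92% and 9.27% of all genes). Among the called copies, Gm13036 had only 28 reads over the 4 control libraries, so its rises are tied to the read minimum. Cdv3 had changes of -0.04 (adjusted p = 0.89) and 0.23 (adjusted p = 0.3). Gm13223, a Cdv3 copy beside Gm13230, measured 0.478 and 0.652 CPM before the inhibitor (D1), 4.84 and 4.08 after it (D3), 0.491 and 0.161 once withdrawn (D8) and 5.51 and 2.76 after re-exposure (D10). Its log2 fold changes were 2.95 (SE 0.51, adjusted p = 0.0086), the largest of the 66 members in the first exposure but lost without either D1 library, and 3.64 (SE 0.53, adjusted p = 0.0039). All 3 Ppp2r5a copies rose in both exposures (7.92% and 9.27% of all genes), with medians of 1.52 and 1.91. Of these, Gm13142 had 72.2% unique words, but Gm13169 had 7.38% and Gm13233 3.95%, so levels of Gm13169 and Gm13233 are uncertain. Ppp2r5a, a regulatory subunit gene of protein phosphatase 2A, fell by 0.69 in the first exposure (adjusted p = 0.026) and had a change of -0.39 (adjusted p = 0.14) in the second.

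Among the 3 Hmgb1 copies, Gm13228 was called in both exposures, at log2 fold changes of 2.09 (SE 0.42, adjusted p = 0.015) and 2.93 (SE 0.46, adjusted p = 0.0049), and Gm13170 in the second by edgeR. Gm13170 had only 18 reads over the 4 control libraries, so its rise is tied to the read minimum. It overlaps Zfp600 on the same strand, had 10.4% unique words, and was not called by DESeq2 (adjusted p = 0.083). Hmgb1 had changes of -0.27 (adjusted p = 0.43) and -0.04 (adjusted p = 0.92). The Rplp1 copy Gm13245 rose by 1.63 and 2.91. The Tlk2, Hmgb2 and Rps19 copies did not pass in either exposure. Tlk2 itself had a change of 0.52 (edgeR adjusted p = 0.074) in the first and was called higher in the second, at 0.67 (adjusted p = 0.027).

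**Figure D5:**
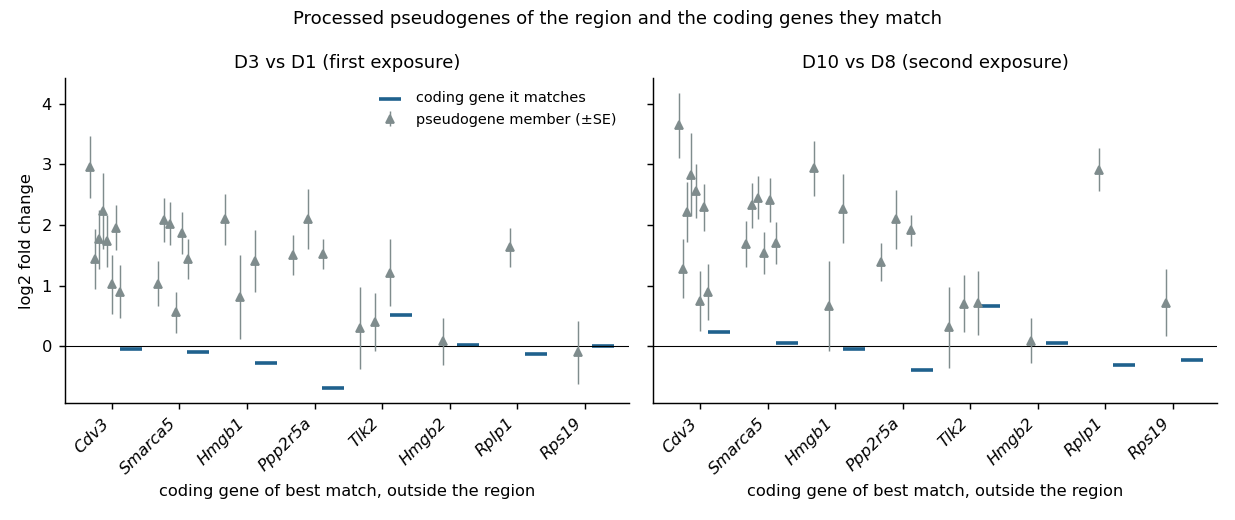
Log2 fold change (±SE) of each of the 26 processed pseudogenes (triangles), grouped by the coding gene of best match, and of that coding gene (blue bar), in both exposures. Copies of Cdv3, Smarca5, Hmgb1 and Ppp2r5a lie above the coding genes, and those of Tlk2, Hmgb2 and Rps19 lie close to or not far above them.

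Gm13166, a long noncoding RNA gene between the zinc finger genes, was the only member called lower by edgeR in the first exposure; DESeq2 also called Tnfrsf1b. It measured 2.30 and 2.33 CPM before the inhibitor (D1), 0.337 and 0.418 after it (D3), 2.29 and 2.16 once withdrawn (D8) and 4.30 and 2.64 after re-exposure (D10). Its log2 fold change was -2.59 (SE 0.38, adjusted p = 0.005) in the first exposure and 0.63 (SE 0.31, adjusted p = 0.21) in the second. The D3 libraries alone were low.

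Zinc finger genes elsewhere had smaller medians. For the 570 tested outside the window the median log2 fold changes were 0.10 and 0.24 in the exposures. For the 218 of these with a KRAB core they were 0.19 and 0.45, with 9 and 20 called higher and 2 and 3 lower. Of all genes 7.92% and 9.27% were called higher, so these counts were not above the background. Other windows of 3 Mb with 8 or more zinc finger genes, 12 in all, had medians between -0.27 and 0.42 in the first exposure and between -0.13 and 0.82 in the second, apart from one on chromosome 7 at 4.55 and 5.71 that holds Zscan4 genes. The 0.82 was that of a window on chromosome 8 (4 of 10 called higher), against 1.28 for the cluster in the same fit. The cluster's median was 0.87 without D8 replicate 2 and 0.80 with offsets, fits that were not summarised for the other windows. Differences between windows were not tested. The 218 genes had a median GC content of 40.5%, against 36.0% for the 19.

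Outside the window, the genes most like the mean log2 CPM of the zinc finger members over the 8 libraries, among 14512 compared, were Zfp936 on chromosome 7 (Pearson r 0.998), Tmem126a (0.996), Gm14418 (0.991), D16Ertd472e (0.991) and Orc2 (0.99). Zfp936, with 11 fingers, measured 103 and 65.8 CPM before the inhibitor (D1), 192 and 164 after it (D3), 52.0 and 16.2 once withdrawn (D8) and 202 and 102 after re-exposure (D10). Like the cluster, it was lowest in D8 replicate 2.

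Of 33 listed partners of KRAB zinc finger proteins in silencing and SUMO modification, 32 were tested. By edgeR 1 rose in the first exposure, 4 in the second and 0 at D8 against D1, with no partner falling in these 3 comparisons. These counts were near the background, 7.92% and 9.27% of all genes called higher in the exposures and 0.141% at D8 against D1. Atf7ip, a cofactor of SETDB1, was the one in the first, from 59.8 ± 12.7 to 223 ± 10.6 CPM (SD, n = 2), a log2 change of 1.90 (SE 0.17, adjusted p = 0.0014, edgeR). In the second it had a change of 1.98 (SE 0.17, adjusted p = 0.00082), and Atf7ip2, Morc2a and Senp7 were the other genes called. From D3 to D8 these 4 and Pphln1 fell and Ehmt2 rose, where 11.2% and 11.3% of all genes did. Trim28 had changes of 0.06 (adjusted p = 0.83) and -0.17 (adjusted p = 0.45), and Setdb1 of 0.10 (adjusted p = 0.62) and 0.01 (adjusted p = 0.97).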

How the data were processed

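The labelled molecule is polyA RNA, but the labels' protocol names a kit for total RNA that keeps strand and depletes ribosomal RNA. The authors deposited raw read counts per gene for 8 libraries. Per the submitters' processing notes these involved bcl2fastq 2.17.1.14, STAR 2.5.0a and featureCounts on mm10; for the annotation release, the strand setting and reads with several matches, nothing is stated (not given in the sources used here).

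Counts were tested with edgeR 4.0.16 (R 4.3.3), TMM scaling and the quasi-likelihood test, with 4 groups of 2 libraries in 1 model, 2-sided, after edgeR's default filter on low counts by group, which left 19173 genes. Residual degrees of freedom were 4 and the common coefficient of variation 19.6%, which limits precision. Genes were called at a Benjamini-Hochberg adjusted p under 0.05 over all genes tested. SEs were derived from the fold change and its F value. All 66 members passed the filter. DESeq2 1.42.0 was an alternative. Other alternatives were RLE size factors, no or a stricter filter, offsets for GC content and length, a replicate block, a minimum of 200 reads, and leaving out each library.

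Coordinates and gene classes came from GENCODE M21, and fingers were counted in translated transcripts (C, 2 to 4 residues, C, 12 residues, H, 3 to 5 residues, H). Pseudogenes were matched to coding transcripts with blastn 2.17.0. Genes named were the zinc finger members with the largest and smallest called changes and the highest levels, the most abundant and called other coding members, called noncoding members with the largest changes, and Rex2, Zfp600, Fv1, Mfn2 and Tnfrsf1b. Other genes named were chosen after their values were seen. Members, classes and lists were chosen with earlier results of these data known.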

Additional observations from a re-analysis of the deposited data

Results flagged for a closer look

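In Gm13166 the libraries lay on opposite sides of their controls in the exposures, although only the fall in the first was called by edgeR or DESeq2. Both D3 libraries (0.337 and 0.418 CPM) lay below both D1 libraries (2.30 and 2.33), and both D10 libraries (4.30 and 2.64) above both D8 libraries (2.29 and 2.16), a change of 0.63 (edgeR adjusted p = 0.21, DESeq2 0.31). The second response minus the first was 3.22 on the log2 scale (SE 0.49). It had an unadjusted p of 0.00012 and an adjusted p of 1 by edgeR over all genes tested, and an adjusted p of 0.0084 by DESeq2. Of its distinct 50-base words 29.5% occurred in no other gene, its best coding match was Abcg2 at 92.9% identity, and it overlaps Gm13168 and Vmn2r-ps17 on its own strand. The part of shared reads in this pattern was not tested.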

How the results depend on the processing

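Every zinc finger median kept its sign under all alternatives run, but its size moved: 0.28 to 0.69 in the first exposure, 0.80 to 2.03 in the second, -1.59 to -0.41 for D8 against D1, -2.20 to -0.80 for D8 against D3 and 0.23 to 1.44 for the second response minus the first. In the first exposure, 3 as reported, the count was 5 with GC content and length offsets, 9 with no filter, 10 with the replicate block, 8 with the block and offsets together (chosen after seeing the data), and 1 to 5 when each library was left out. In the second, 10 as reported, it was 18 with no filter, 18 with the replicate block and 5 to 19 with a library left out. For D8 against D1, 2 as reported, it was 5 by DESeq2, 12 with no filter, 1 with the stricter filter, 10 with the block, 8 with the block and offsets together, and 0 to 10 with a library left out. For D8 against D3, 13 as reported, it was 19 with the block and 6 to 19 with a library left out. For the second response minus the first, 0 as reported, it was 2 with no filter. The causes were not tested. Replicate numbers match only 2 libraries a group, which share only a number: same-numbered deviations correlated at 0.101 to 0.498 over the 6 pairs of groups. With the block all zinc finger members but Zfp933 were called in the second exposure, among them Zfp985 (adjusted p = 0.0022), Zfp990 (0.0052) and Zfp979 (0.0064). Of 36 calls of single genes, 16 held in every leave-one-out case and 15 in every alternative; none reversed. Leaving out a library leaves a group with 1, assumed to vary like the others. Doing so also changed the number of all genes called in each comparison of a pair of groups that used the library. A minimum of 200 reads and the KRAB core requirement gave the same 19 members. Low counts limit the noncoding members most.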
